A study of Mus musculus with 6 samples.

Results

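The 10 genes described here encode proteins with which macrophages bind, take up, carry and secrete lipid and debris, namely Itgax, Trem2, Tyrobp, Lgals3, Cd36, Fabp5, Msr1, Lpl, Apoe and Spp1. They were chosen as a list of genes of lipid-handling CD11c macrophages and matched by symbol in the deposited table. All 10 were found among 17091 genes. The RNA came from the lateral wall, dissected out of cochleas of the inbred strain CBA/CaJ, with 3 old mice aged 2.5 years and 3 young mice aged 2 months. Both cochleas of a mouse were pooled into 1 library. No transgene, allele or agent is named for either group, and the sex of the mice is not stated. The list was proposed with results of old against young in view, so the values of its members are a description and carry no test. In bulk tissue, more cells of a type and more RNA per cell cannot be told apart.

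Lipid-associated macrophages are found in fat, arterial plaque and injured or ageing tissue, where they engulf lipoproteins, dying cells and myelin. The surface receptor TREM2 binds lipids and lipoproteins and signals through the adaptor TYROBP, also called DAP12, whose phosphorylated tail recruits the kinase SYK. The scavenger receptors CD36 and MSR1 take up fatty acids and modified lipoproteins, LPL and FABP5 release and carry fatty acids, and APOE carries cholesterol away. The lateral wall itself holds resident macrophages along the vessels of the stria vascularis, whose epithelium keeps endolymph rich in potassium.

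Recovered reads numbered 37577315 to 39103396 in old and 37055355 to 38179961 in young libraries. Lateral wall markers were abundant in all of them: the summed value of 11 such genes, Coch and Slc12a2 highest, was 934692 to 1275470 in old and 1457010 to 1592340 in young libraries. Old replicate 3 stood apart in Xist, the transcript of the inactive X chromosome, with 45.2 normalised counts against 24382 to 29162 in the other 5 libraries. Old replicates 1 and 3 also stood apart in blood cell transcripts. The mean of 9 neutrophil and marrow markers exceeded that of the young libraries by 3.68 log2 units in old replicate 1, 0.80 in old replicate 2 and 4.51 in old replicate 3. For 8 erythroid markers the excess was 3.32, 0.46 and 3.98 units in the same order.

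Of the 10 members, 8 had higher values in every old library than in any young library, and 7 were called higher by limma, with a Benjamini-Hochberg adjusted p below 0.05 over all genes. The exceptions to the call were Lpl, Apoe and Spp1, and no member was called lower. Over all genes, 13.2% did not overlap in that direction and 12.8% in the other, while 2.71% were called higher and 2.55% lower. Nothing is read from these shares, because the members were chosen on this contrast. Their median log2 fold change (old minus young, each value taken as log2(value + 1)) was 1.97, and that of all genes was −0.00. For 6 of the 7 called members the highest old library was old replicate 3, the library low in Xist and high in blood cell transcripts. The part of sex or of blood cells in that order was not tested. Over all genes, 463 were called higher and 435 lower. Leaving out young replicate 3 gave 139 and 91 calls, young replicate 2 gave 174 and 114, young replicate 1 gave 299 and 262, and old replicate 3 gave 256 and 354.

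**Figure D1:**
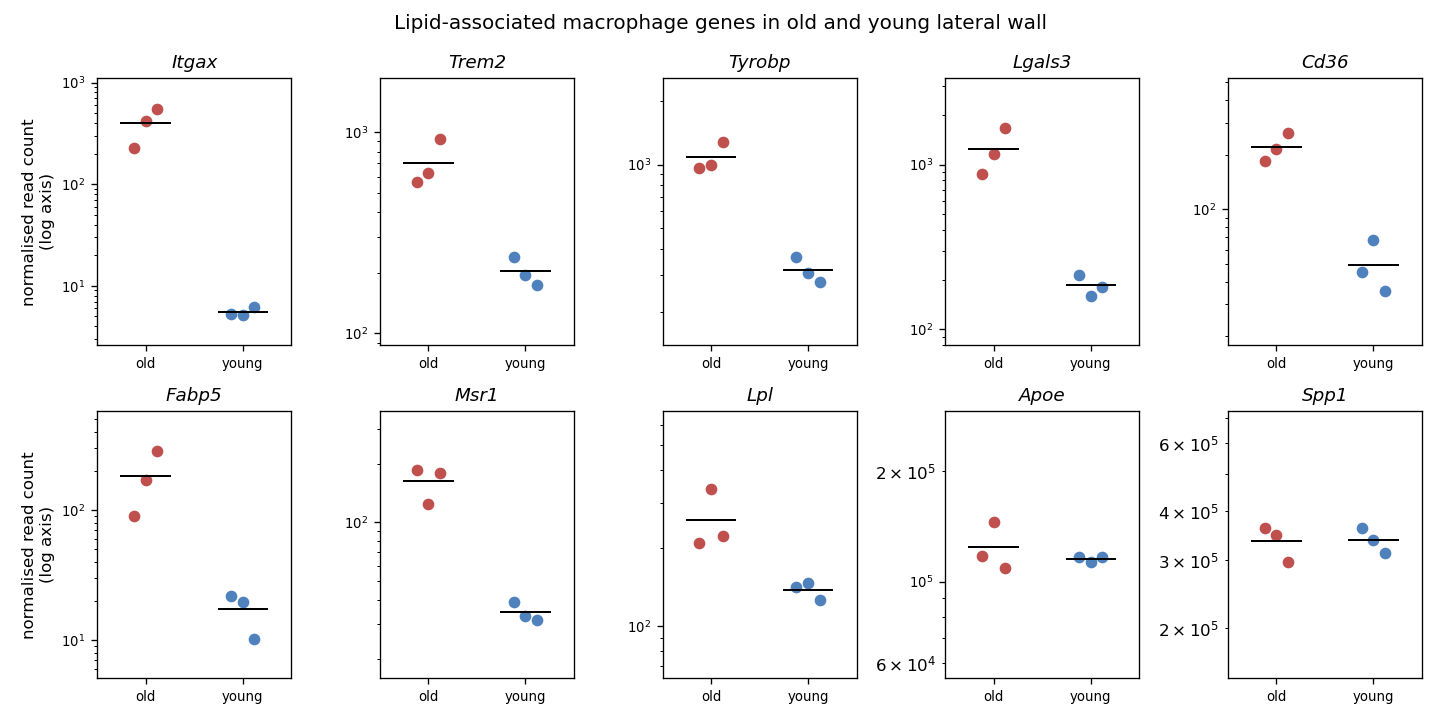
Normalised read count of each of the 10 members (log axis, a separate range in each panel) in 3 old and 3 young libraries, with 1 point per library and a black line at the group mean. Old points lie above all young points in 8 panels, whereas those of Apoe and Spp1 overlap.

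Itgax encodes CD11c, an integrin chain of dendritic cells and of lipid-associated macrophages, and it differed most. It had 228, 420 and 550 normalised counts in old replicates 1, 2 and 3, against 5.25, 5.19 and 6.13 in young replicates 1, 2 and 3. The lowest old library thus stood far above all young ones. These values rest on 1251 reads in the old and 16 reads in the young libraries, a ratio of 72.4 with a 95% exact binomial counting interval of 44.4 to 127. The log2 fold change was 5.85 ± 0.36 (SE, n = 3 each), and 5.58 to 6.21 without 1 library. Only 4 of the genes tested had a larger log2 fold change. Itgax lies in GRCm38, the assembly named mm10, on chromosome 7 at 128129547-128150657 on the plus strand (GENCODE M21), and like all values here its count covers the whole gene.

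Trem2, the lipid-sensing receptor, had 565, 625 and 924 normalised counts in old replicates 1, 2 and 3, against 240, 196 and 175 in young replicates 1, 2 and 3. Tyrobp, its signalling adaptor, had 964, 1000.5 and 1281 in the old and 364, 307 and 279 in the young libraries of the same numbering. For both genes old replicate 3 was the highest old library and young replicate 1 the highest young one, and the groups did not overlap. Their log2 fold changes were all but equal, 1.77 ± 0.21 for Trem2 and 1.77 ± 0.16 for Tyrobp (SE, n = 3 each). Trem2 lies on chromosome 17 at 48346401-48354147 and Tyrobp on chromosome 7 at 30413760-30417585, both on the plus strand.

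The scavenger receptor genes stood lower in counts. Cd36, a receptor for fatty acids and oxidised lipoprotein that capillary endothelium and fat cells also make, had 184, 214 and 262 normalised counts in old replicates 1, 2 and 3. In young replicates 1, 2 and 3 it had 45.1, 67.4 and 35.7. Its log2 fold change was 2.17 ± 0.28 (SE, n = 3 each). Msr1, scavenger receptor A, had 185, 124 and 179 in old replicates 1, 2 and 3, against 38.8, 33.2 and 31.7 in young replicates 1, 2 and 3. It was the only member among the 7 called whose lowest old library was replicate 2, and its log2 fold change was 2.18 ± 0.26 (SE). Cd36 lies on chromosome 5 at 17781690-17888801 and Msr1 on chromosome 8 at 39581685-39642673, both on the minus strand.

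Among the genes of intracellular and extracellular lipid handling the values diverged. Fabp5, a fatty acid carrier of macrophages and of epidermis, had 90.2, 171 and 286 normalised counts in old replicates 1, 2 and 3, against 22.0, 19.7 and 10.2 in young replicates 1, 2 and 3. Its old libraries spread more than those of any other member on the log2 scale, from 2.38 to 4.04 units above the young mean, and its log2 fold change was 3.24 ± 0.45 (SE, n = 3 each). The processed pseudogene Fabp5l2 may take some of its reads, so its level is uncertain. Of 5 keratinocyte markers none was called, but Krt14, Krt1 and Ivl were higher in every old than in any young library. Such a gap in that direction was seen for 13.2% of all genes. The log2 fold changes of these 3 were 1.04, 1.25 and 2.48. The list mean exceeded its young value by 1.201 log2 units in old replicate 1, 0.97 in old replicate 2 and 0.48 in old replicate 3, whereas Fabp5 was highest in old replicate 3. The summed value, mostly Krt10, was 194 to 320 in old and 206 to 216 in young libraries. Their part in the Fabp5 values was not tested.

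Lpl, the secreted lipase that frees fatty acids from lipoproteins, had 209, 338 and 221.9 normalised counts in old replicates 1, 2 and 3, against 142, 146 and 126 in young replicates 1, 2 and 3. The groups did not overlap, and old replicate 2 stood alone at the top. The log2 fold change was 0.86 ± 0.22 (SE, n = 3 each), and 0.64 to 0.99 without 1 library. Lpl did not pass the limma threshold with all libraries or in any run without 1 library (limma adjusted p of 0.0543 to 0.228 in those runs). DESeq2 on the recovered reads and the authors' deposited table (a signed fold of 1.86) placed it past theirs. With old replicate 2, its highest library, as the only old one, the log2 fold change was 1.29.

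Apoe, the main apolipoprotein of tissue macrophages and glia, was among the most abundant transcripts. It had 117540, 145551 and 108962 normalised counts in old replicates 1, 2 and 3, against 116831, 113189 and 116457 in young replicates 1, 2 and 3. Old replicate 2 was the highest library and old replicate 3 the lowest, so the groups overlapped. The log2 fold change was 0.09 with a 95% interval of −0.20 to 0.39, 0.45 with quantile normalisation and −0.03 without old replicate 2. Apoe lies on chromosome 7 at 19696109-19699188 on the minus strand, next to a row of smaller apolipoprotein genes on that strand. Of these, Apoc4 rose: it averaged 25.9 ± 5.48 normalised counts in old and 1.38 ± 0.60 in young mice, or 81 against 4 reads (SD, n = 3 each, limma adjusted p = 0.00527). Apoc1 had a log2 fold change of −0.68 ± 0.36 and Apoc2 of 1.88 ± 0.54 (SE), and limma called neither (adjusted p of 0.319 and 0.0855). Apoc4 and Apoc2 share exons with the read-through gene Gm44805, so their reads are uncertain.

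The secreted binding proteins also diverged. Lgals3 encodes galectin-3, a sugar-binding protein that phagocytes release and that marks damaged lysosomes. It had 877, 1164 and 1667 normalised counts in old replicates 1, 2 and 3, against 214, 160 and 182 in young replicates 1, 2 and 3. Its log2 fold change was 2.69 ± 0.23 (SE, n = 3 each), and the groups lay far apart. Spp1, which encodes osteopontin, a phosphoprotein of bone matrix and of activated macrophages, had 361813, 347995 and 295630 in old replicates 1, 2 and 3. In young replicates 1, 2 and 3 it had 363043, 336970 and 312232. These ranges nearly coincide, and the log2 fold change was −0.01 with a 95% interval of −0.31 to 0.28. The sign of that value turned with quantile normalisation (0.22), without old replicate 3 (0.08), without young replicate 1 (0.04) and for old replicate 2 alone (0.047). Spp1 ranked 5th of all genes by mean value in old and 6th in young mice. Its SD among old libraries was 34912, more than the mean of all other members but Apoe, so a difference of that size in counts was not detectable in Spp1. Lgals3 lies on chromosome 14 at 47367751-47386160 and Spp1 on chromosome 5 at 104435118-104441050, both on the plus strand, and part of Spp1 is also annotated as Gm42793.

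Promoter windows of RefSeq (GRCm38.p6), 250 bases before to 50 after a start site, matched 6 of the 10 members. Those of Itgax, Trem2 and Spp1 are printed because they cover the largest change, the receptor of the list and its most abundant, level member. Capitals mark motif letters, of which GAGGAAGT is an ETS site of the type bound by the myeloid factor PU.1. The letters TGAGTCA are the site of AP-1 factors. A TATA box was searched as TATAAA.
Itgax, chr7:128129300-128129599, plus strand: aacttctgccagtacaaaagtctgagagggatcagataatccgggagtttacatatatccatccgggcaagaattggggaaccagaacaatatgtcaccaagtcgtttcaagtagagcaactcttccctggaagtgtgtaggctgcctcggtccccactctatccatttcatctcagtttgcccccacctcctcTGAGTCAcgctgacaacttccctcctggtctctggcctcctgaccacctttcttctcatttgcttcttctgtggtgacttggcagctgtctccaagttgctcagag
Trem2, chr17:48346151-48346450, plus strand: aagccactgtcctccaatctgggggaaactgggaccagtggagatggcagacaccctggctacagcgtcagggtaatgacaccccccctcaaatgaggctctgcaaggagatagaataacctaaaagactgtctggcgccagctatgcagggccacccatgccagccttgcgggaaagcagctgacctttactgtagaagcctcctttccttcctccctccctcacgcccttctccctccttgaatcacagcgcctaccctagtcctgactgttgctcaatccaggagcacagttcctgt
Spp1, chr5:104434861-104435160, plus strand: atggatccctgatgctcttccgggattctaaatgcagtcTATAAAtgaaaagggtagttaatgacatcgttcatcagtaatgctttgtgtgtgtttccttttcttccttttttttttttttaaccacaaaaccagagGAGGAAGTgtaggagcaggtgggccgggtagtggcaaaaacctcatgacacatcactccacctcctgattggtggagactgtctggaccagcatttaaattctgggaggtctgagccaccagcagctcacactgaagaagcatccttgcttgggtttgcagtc
The Itgax window holds TGAGTCA from base −56, where 5.2% of all 32851 windows hold it on either strand. The Spp1 window holds GAGGAAGT from base −113 and TATAAA from base −211, which 3.2% and 13.6% of all windows hold. The Trem2 window holds none of these letters. CACGTG, the E-box that MiT/TFE factors bind (7.15% of all windows), is in none of the 9 member windows. The direct repeats of the LXR and PPAR elements, found by name in 0.0152% and 0.0396% of all windows, are in none of them either. TATAAA and its reverse complement overlap in 1 further Apoe window. Such matches describe letters only.

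Per kilobase of the main annotated transcript, the members covered a wide range of levels. In old mice Spp1 had 222393 ± 23167 and Apoe 88081 ± 13590 normalised counts per kilobase, followed by Tyrobp with 1918 ± 307, Lgals3 with 871 ± 282 and Trem2 with 648 ± 177 (SD, n = 3). Fabp5, Msr1, Itgax, Cd36 and Lpl followed between 185 ± 99.9 and 62.3 ± 17.2 per kilobase, and the ranges of neighbours in that order overlapped, as did those of Lgals3 and Trem2. In young mice the order was Spp1, Apoe, Tyrobp, Trem2, Lgals3, Lpl, Msr1, Fabp5, Cd36 and Itgax, from 223898 ± 16860 to 1.36 ± 0.13 per kilobase. Among young neighbours, Msr1 and Fabp5 as well as Fabp5 and Cd36 overlapped. Itgax thus stood last in young mice and 8th in old mice. The list's name was checked against macrophage markers. The summed value of 14 macrophage markers was 30005 to 43659 in old and 9465 to 11023 in young libraries, far below Spp1 or Apoe alone. The source cells of Apoe and Spp1 cannot be told from these libraries.

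Most macrophage markers were themselves higher in old mice. Of 14, 11 rose and none fell, where 2.71% of all genes were called higher and 2.55% lower. The most abundant were Lyz2 (16286 ± 4688 in old and 1876 ± 276 in young mice) and Mpeg1 (4246 ± 1407 in old and 888 ± 87.3 in young mice, SD, n = 3 each). Adgre1, the F4/80 antigen, rose by 1.15 ± 0.18 on the log2 scale (SE, limma adjusted p = 0.00976). Csf1r, the growth factor receptor of macrophages, had 1922 ± 347 in old and 1725 ± 142 in young mice and a log2 fold change of 0.14 ± 0.14 (adjusted p = 0.619). Both were named after their values were seen. Of the 14 markers, 7 were called without young replicate 2, 5 without young replicate 3 and 4 with old replicate 2 alone, where the spread comes from the young libraries only. The call of Adgre1 was lost without young replicate 3 and with old replicate 2 alone (limma adjusted p of 0.0536 and 0.0766), while Lyz2 and Mpeg1 were called in each of these runs. The mean of the 14 markers exceeded its young value by 1.31 log2 units in old replicate 1, 1.03 in old replicate 2 and 1.54 in old replicate 3. That mean includes the level Csf1r, and the members were chosen on this contrast, so their distance from it is a description. Trem2 lay 0.17 to 0.65 units above it in the old libraries, Itgax 3.82 to 4.99 units above it, and Apoe and Spp1 below it. Single macrophage markers stood as high as the receptor and its adaptor or higher, with log2 fold changes of 3.09 for Lyz2, 2.21 for Mpeg1 and 1.79 for Cybb, against 1.77 for Trem2 and Tyrobp.

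**Figure D2:**
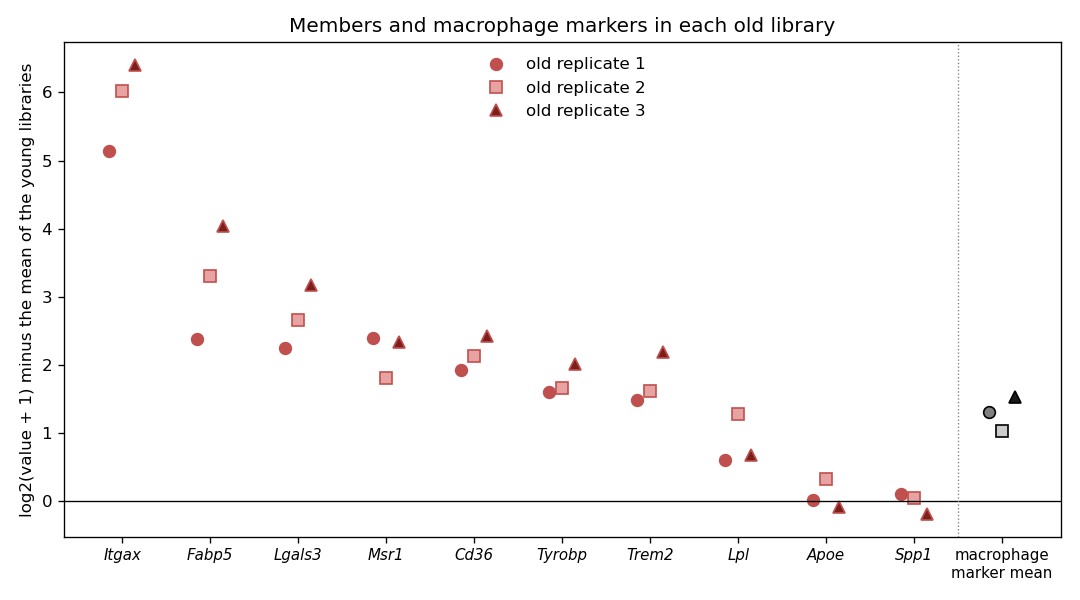
Difference of log2(value + 1) from the young mean (vertical axis, log2 units) for each member in each of 3 old libraries, beside the mean of 14 macrophage markers. Itgax lies highest with 5.14 to 6.40 units, Apoe and Spp1 lie about 0, and the macrophage marker mean lies between 1.03 and 1.54.

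Ratios within a library show how the members moved relative to each other, though a ratio of counts is no ratio of molecules. Tyrobp over Trem2 was 1.70, 1.60 and 1.39 in old replicates 1, 2 and 3, against 1.52, 1.57 and 1.60 in young replicates 1, 2 and 3, and the groups overlapped. Itgax over Trem2 was 0.40, 0.67 and 0.59 in old replicates 1, 2 and 3, against 0.022, 0.026 and 0.035 in young replicates 1, 2 and 3. Lgals3 over Trem2 was 1.74 ± 0.16 in old and 0.92 ± 0.12 in young libraries, and Msr1 over Trem2 was 0.24 ± 0.08 in old and 0.17 ± 0.01 in young libraries (SD, n = 3 each). Relative to Adgre1, Trem2 stood at 0.774, 1.003 and 1.012 in old replicates 1, 2 and 3, against 0.616, 0.583 and 0.600 in young replicates 1, 2 and 3. Relative to Csf1r, it stood at 0.37 ± 0.06 in old and 0.12 ± 0.02 in young libraries, and relative to C1qa at 0.27 ± 0.07 and 0.16 ± 0.02. These 3 markers had smaller log2 fold changes than Trem2 (1.15 for Adgre1, 0.14 for Csf1r and 1.07 for C1qa), so the direction follows from their choice. Lyz2, Mpeg1 and Cybb had larger ones (3.09, 2.21 and 1.79 against 1.77 for Trem2), and no ratio to them was taken. Itgax, Lgals3 and Msr1 had larger log2 fold changes than Trem2 too (5.85, 2.69 and 2.18), so the direction of their ratios to it also follows from the choice. The ratios of Itgax, Lgals3 and Msr1 to Trem2, and of Trem2 to Adgre1, Csf1r and C1qa, did not overlap between the groups. These differences were not tested.

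**Figure D3:**
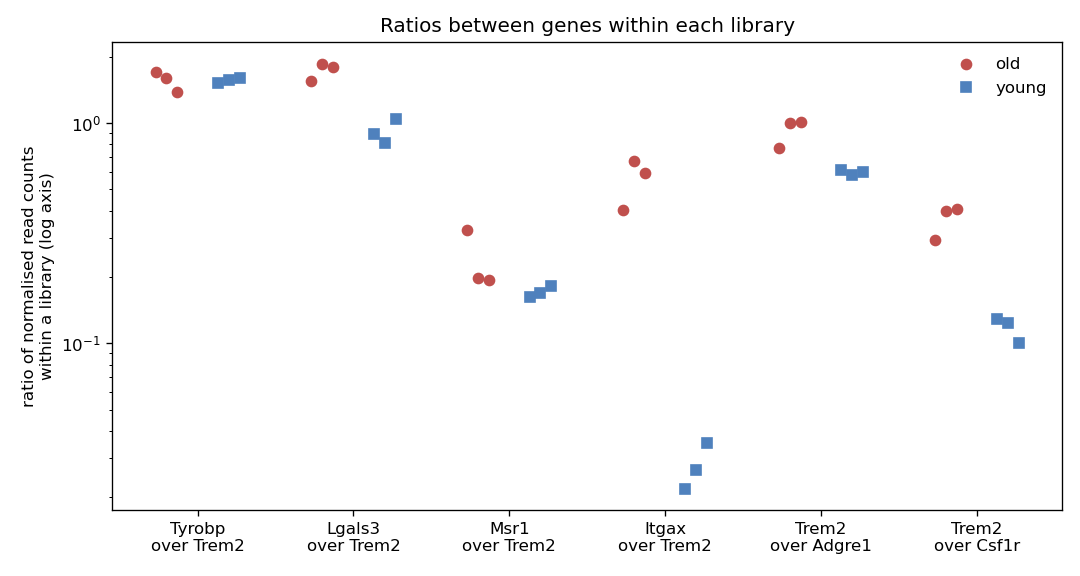
Ratios of normalised read counts between pairs of genes within each library (log axis), with old libraries as circles and young libraries as squares. The ratio of Tyrobp to Trem2 overlaps between the groups, whereas that of Itgax to Trem2 lies at 0.40 to 0.67 in old and at 0.022 to 0.035 in young libraries.

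The genes whose profile was nearest to each member were taken by the root mean square difference of log2 values from the young mean over the 6 libraries, with 12801 candidate genes whose mean reached 50 and whose symbol was not provisional. Trem2 and Tyrobp were 2nd nearest to each other (0.09 log2 units), and Glipr2 was nearest to both (0.07 each). Itgax was nearest to Atp6v0d2, which encodes part of the acid-secreting pump of osteoclasts (0.54), and then to the chemokine gene Cxcl13 (0.79). Lgals3 was nearest to Pla2g2d and Il2rg (0.24 and 0.26). Cd36 was nearest to Fmo2 and to Cd68, a lysosomal protein of macrophages (0.16 and 0.19), and Msr1 to the myeloid receptor genes Clec5a and Ms4a6d (0.17 and 0.18). Fabp5 was nearest to the neuronal gene Stmn2 and to the lysozyme gene Lyz2 (0.25 and 0.34). Lpl was nearest to Chd3os and Nova1 (0.08 and 0.16). Apoe was nearest to Snhg14 and Polr2c (0.03 and 0.04), and Spp1 to Scfd1 and Malsu1 (0.03 each), where many genes with no age difference lie close.

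Among 19 other genes of the published lipid-associated and disease-associated macrophage signatures, 6 rose and 1 fell, with a median log2 fold change of 0.28 against −0.00 over all genes. The shares over all genes were 2.71% called higher and 2.55% lower. This list and the related lists below were chosen with earlier results of these data known, so their counts beside these shares are a description and no test. Clec7a, the receptor Dectin-1, averaged 404 ± 97.4 normalised counts in old and 29.6 ± 8.54 in young mice (SD, n = 3 each), a log2 fold change of 3.74 ± 0.29 (SE, with an adjusted p of 0.000433 in limma). Cst7, a cysteine protease inhibitor, had 116 reads in the old and 1 in the young libraries, 107 times as many per unit depth (counting interval 18.9 to 4277, limma adjusted p = 0.00267). The chemokine gene Ccl6 rose by 2.44 ± 0.37. Gpnmb, a glycoprotein of macrophages and of pigment cells, averaged 50077 ± 13208 in old and 29601 ± 1622 in young mice (log2 fold change 0.73 ± 0.17, limma adjusted p = 0.0431). Ctsd (0.54 ± 0.11) and Cd52 (1.70 ± 0.30) rose and Timp2 fell (−0.54 ± 0.09), all 3 named after their values were seen. Cd9, a tetraspanin used to sort such macrophages, had 17256 ± 2218 in old and 17574 ± 1283 in young mice (log2 fold change −0.03, 95% interval −0.30 to 0.24). Its sign turned with quantile normalisation, without old replicate 3 and without young replicate 1. The calls of Ctsd, Cd52 and Timp2 were lost without young replicate 2 or 3, that of Ctsd also without old replicate 1, and that of Gpnmb without old replicate 1 or any 1 young library (limma adjusted p up to 0.133, 0.074, 0.0897 and 0.166). Without young replicate 2 or young replicate 3 the list had 3 rises and 0 falls, and old replicate 2 alone gave 1 rise.

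Of 21 tested partners and signalling proteins of TYROBP, 5 rose and none fell, with a median log2 fold change of 0.40. Among all genes, 2.71% were called higher and 2.55% lower. Clec5a and Cd300lb, receptors that pair with TYROBP, rose by 2.31 ± 0.27 and 2.91 ± 0.44 on the log2 scale (SE, limma adjusted p of 0.00277 and 0.0087). The kinase gene Syk rose by 1.62 ± 0.39 (limma adjusted p = 0.049), with 288, 171 and 547 normalised counts in old replicates 1, 2 and 3, against 76.6, 109 and 109 in young replicates 1, 2 and 3. The adaptor gene Lcp2 rose by 2.37 ± 0.47 and the kinase gene Btk, named after its value was seen, by 2.44 ± 0.52. Hcst, which encodes the sister adaptor DAP10 and is the next gene to Tyrobp on the opposite strand, had 47 reads in the old and 9 in the young libraries and was not called (limma adjusted p = 0.146). Neutrophils and B cells also use several of these genes, and the neutrophil markers given above were highest in the same old libraries, 1 and 3, as Syk and Btk. Their part in these values was not tested. The call of Syk was lost in every run without 1 library except that without old replicate 2 (limma adjusted p up to 0.141). It was also lost with either other pseudocount, a mean of at least 10, quantile normalisation, limma without trend and robust estimation, the replicate block and old replicate 2 alone, that is in every other limma setting. The call of Btk was lost without old replicates 1 or 3 or young replicates 1 or 3 (up to 0.12), and that of Lcp2 without old replicate 3 or young replicate 3 (up to 0.0756). The list had 3 rises without old replicate 1 or young replicate 1, 2 without old replicate 3 or young replicate 3, and 1 with old replicate 2 alone.

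Of 19 genes of cholesterol storage and efflux, 2 rose and none fell, with a median log2 fold change of 0.12. Among all genes, 2.71% were called higher and 2.55% lower. Ch25h, which makes 25-hydroxycholesterol, averaged 127 ± 58.2 normalised counts in old and 25.8 ± 6.17 in young mice (SD, n = 3 each, log2 fold change 2.19 ± 0.36, limma adjusted p = 0.012). Lipa, the lysosomal acid lipase, rose by 0.57 ± 0.12 (limma adjusted p = 0.0293). The nuclear receptor genes Nr1h3 and Pparg, of LXR alpha and PPAR gamma, had 0.28 ± 0.19 and 1.11 ± 0.38, and limma called neither (adjusted p of 0.428 and 0.132). The cholesterol exporter genes Abca1 and Abcg1 had values near 0: Abca1 had 0.16 (95% interval −0.32 to 0.64) and Abcg1 had 0.01 (interval −0.31 to 0.33). Both stood below 0 without old replicate 3 (−0.09 and −0.16). The lipid droplet gene Plin2 had 0.44 ± 0.12 and the lysosomal cholesterol transporter gene Npc1 −0.37 ± 0.10, with limma adjusted p of 0.0765 and 0.0619. The call of Lipa was lost without old replicate 3 or any 1 young library (up to 0.128), which left 1 rise in the list, and old replicate 2 alone gave 0 rises.

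Scavenger and lipoprotein receptors outside the list did not move in 1 direction. Of 22 tested, 2 rose and 2 fell, with a median log2 fold change of −0.29, where 2.71% of all genes were called higher and 2.55% lower. Cd68 rose by 2.15 ± 0.15 and Cxcl16, a membrane chemokine that also binds oxidised lipoprotein, by 0.83 ± 0.12 (SE, limma adjusted p of 0.000339 and 0.00766). Lrp1, a large receptor for APOE-bearing lipoproteins, fell by 0.73 (−0.73 ± 0.10, limma adjusted p = 0.006), with 12304 to 13808 normalised counts in old and 20085 to 23510 in young libraries. Scara3, named after its value was seen, also fell (−0.62 ± 0.13), and that call ended when any library other than old replicate 2 was left out (limma adjusted p up to 0.105). The receptor genes Axl and Mertk, which bind dying cells, had −0.44 ± 0.11 and −0.59 ± 0.18 (limma adjusted p of 0.0571 and 0.0984), and Mertk was called without old replicate 3 (0.0123). The list had 5 falls without old replicate 2 and 1 fall without old replicate 1 or any 1 young library.

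Of 26 genes of lipoprotein lipase regulation and fatty acid handling, Apoc4 alone rose and Fabp7 alone fell, with a median log2 fold change of −0.12. These counts are near the shares over all genes, 2.71% called higher and 2.55% lower, so nothing is read from them. Fabp7, a fatty acid carrier of glia, averaged 69.7 ± 28.9 normalised counts in old and 232 ± 24.4 in young mice (log2 fold change −1.80 ± 0.30, limma adjusted p = 0.0136), and its call was lost without young replicates 1 or 3 (up to 0.0713). Gpihbp1, which anchors LPL on capillaries, had −0.47 (95% interval −1.53 to 0.59), with the sign turned for old replicate 2 alone, and Angptl4, which inhibits LPL, had −0.57 (−1.50 to 0.35). Without old replicate 2 the list had 2 rises, and old replicate 2 alone gave 0.

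Of 17 osteopontin receptors, CD11 integrins and galectins, 4 rose and 1 fell, with a median log2 fold change of 0.27. The shares over all genes were 2.71% called higher and 2.55% lower. Itgb2, the CD18 chain with which CD11c pairs, averaged 777.4 ± 204 normalised counts in old and 141 ± 1.62 in young mice (log2 fold change 2.42 ± 0.20, limma adjusted p = 0.000591). The other CD11 chains Itgam (1.40 ± 0.27, limma adjusted p = 0.0211) and Itgal (1.84 ± 0.28, limma adjusted p = 0.0087, named after its value was seen) rose less than Itgax in log2 fold change, which no test compared. Itga4, a chain that binds osteopontin on leukocytes, rose by 1.12 ± 0.15, and Itga8, an osteopontin receptor chain of mesenchymal cells, fell (−2.11 ± 0.11, limma adjusted p = 0.000217). Cd44, a further osteopontin receptor, had 0.21 (95% interval −0.03 to 0.45) and was not called. The call of Itgam was lost without any 1 young library (up to 0.0897). Part of Itgam is also annotated as Gm49368, and Itga4 overlaps Cerkl on the opposite strand, so their reads are uncertain. With old replicate 2 alone the list had 1 rise. Other genes also overlap exons of Cd9, Ctsd, Cd52, Lcp2, Nr1h3, Npc1, Ch25h, Cxcl16, Itga8 and Csf1r, whose reads are uncertain to that extent.

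**Figure D4:**
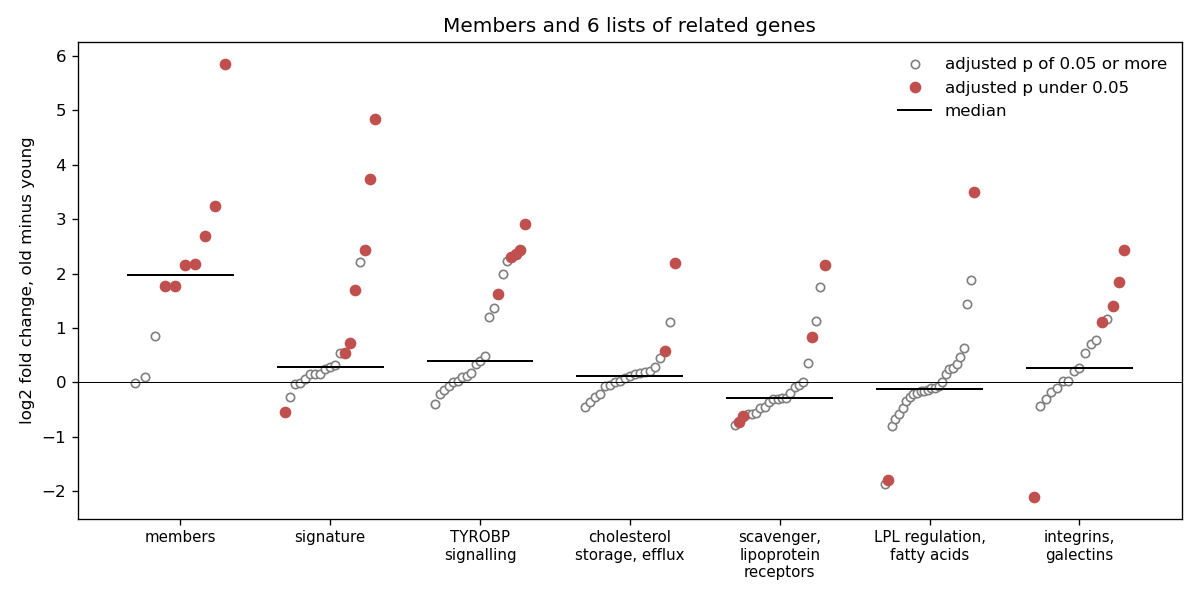
Log2 fold change, old minus young, of each member and of each tested gene of 6 related lists, with filled points where the limma adjusted p was under 0.05 and a line at each median. The list medians lie between −0.29 and 0.40. The members were chosen on this contrast and the lists with earlier results of these data known, so all are shown for their values only.

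Cell types other than macrophages can express several members. The counts of their markers stand beside 2.71% of all genes called higher and 2.55% called lower. Of 7 tested osteoclast markers, 2 rose (Atp6v0d2 and Acp5) and Ctsk fell. Both rises were called in every run without 1 library and with old replicate 2 alone, whereas the call of Ctsk held only without old replicate 2. The list mean exceeded its young value by 1.17 log2 units in old replicate 1, 0.95 in old replicate 2 and 2.20 in old replicate 3. Ocstamp, an osteoclast fusion gene, had at most 5.82 normalised counts in any library. Of 8 osteoblast and osteocyte markers, 4 fell and none rose (2 fell without young replicate 2 and with old replicate 2 alone), and their mean stood at −1.88 in old replicate 1, −1.38 in old replicate 2 and −1.55 in old replicate 3. Of 8 dendritic cell markers, none rose and Fscn1 fell. Flt3 was not called, but it had 13.6 to 54.8 normalised counts in old and 4.15 to 6.13 in young libraries, which did not overlap. Zbtb46, also not called, lay the other way, with 102 to 152 in old and 166 to 183 in young libraries. Among the 8, 1 did not overlap in the higher and 2 in the lower direction, where 13.2% and 12.8% of all genes did so. Without old replicate 1, 1 dendritic marker was called higher, and without young replicate 3 or with old replicate 2 alone none was called lower. Their mean stood at −0.19 in old replicate 1, 0.46 in old replicate 2 and 0.54 in old replicate 3, and their summed value, mostly Fscn1, was 826 to 905 in old and 1166 to 1414 in young libraries. Of 5 adipocyte markers none was called, and their mean stood at −0.12 in old replicate 1, 0.30 in old replicate 2 and −0.14 in old replicate 3. Among them, Adipoq had at most 4.85 normalised counts in any library, and Plin4 had 5088 ± 1758 in old and 13786 ± 5350 in young mice (SD, n = 3 each), with no overlap. Without young replicate 1, 1 adipocyte marker was called lower. No endothelial marker was called of 8 tested (1 was called higher without old replicate 1 and with old replicate 2 alone), with summed values of 11200 to 21054 in old and 12643 to 15167 in young libraries. The mean of 8 Schwann cell markers stood at −0.19 in old replicate 1, 1.55 in old replicate 2 and 1.21 in old replicate 3. Lpl and Apoe were highest in old replicate 2, where that mean was highest too. Of 8 skeletal muscle markers, 2 fell and none rose (1 fell without young replicate 1, 0 without young replicate 3), and Myh1 was at 0 in all old libraries. The part of these cells in the members' values was not tested. In old replicate 2, blood cell markers were lowest among the old libraries, though neutrophil and marrow markers still exceeded their young mean by 0.80 log2 units. There Itgax, Trem2, Tyrobp, Lgals3, Cd36, Fabp5 and Msr1 exceeded their young means by 6.02, 1.63, 1.67, 2.66, 2.14, 3.30 and 1.82 units. In the same order, their log2 fold changes over all 3 old libraries were 5.85, 1.77, 1.77, 2.69, 2.17, 3.24 and 2.18. The part of blood cells in these values was not tested.

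**Figure D5:**
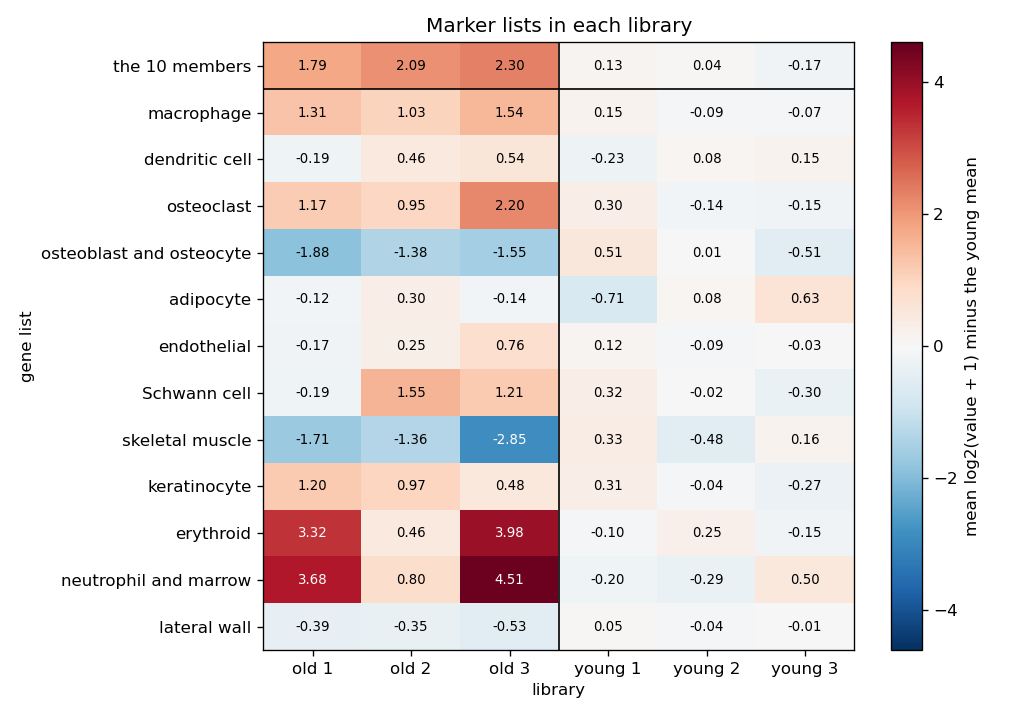
Mean difference of log2(value + 1) from the young mean for the 10 members and for 12 marker lists (rows) in each library (columns, old left of young), with the value printed in each cell. The members stand at 1.79, 2.09 and 2.30 in the old libraries, whereas neutrophil and erythroid lists stand high in old replicates 1 and 3.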

How the data were processed

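RNA-seq of cochlear lateral wall was analysed from 6 libraries, 3 of old and 3 of young mice, 1 mouse each, so tests use the spread between animals. Old replicate 2 and young replicate 1 share a suffix in their column headers, and the headers do not say what it means. If the groups were sequenced apart, that difference could not be told from age. The labels' protocols give miRNeasy Mini Kit purification and TruSeq RNA libraries. The submitters' processing notes list Partek, TopHat2, DESeq2 and mm10 with no roles. For annotation and strand, nothing is given in the sources used here. The source label names auditory nerve cells, whereas tissue label and titles name the lateral wall.

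The authors deposited a signal per gene and library, the read count divided by a size factor of the library. Whole reads were recovered by dividing by the step between low values (99.9% of values, and 100% of those under 10000, came out whole to within 0.1). For each gene the authors deposited a p-value, its adjusted form (absent for 332 genes) and a signed fold score for old against young. The deepest library had 1.06 times the reads of the shallowest. Counting intervals are exact binomial and cover counting error only.

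The members, gene lists and tests were chosen with earlier results of these data known. Differences were fitted with limma 3.58.1 (trend and robust, R 4.3.3) on log2(value + 1) over 17091 genes, with Benjamini-Hochberg adjustment and a threshold of 0.05. A mean of at least 1 removed 0 genes. The log2(value + 1) scale understates changes of low genes. A single-value exact permutation test of 3 against 3 samples cannot go below p = 0.1 and was not run. Alternatives were pseudocounts of 0.1 and 10, a mean of at least 10, quantile normalisation, limma without trend and robust estimation, the replicate number as block, leaving out each library, and the authors' p-values. They also included edgeR 4.0.16 and DESeq2 1.42.0 on recovered reads. Old replicate 2 alone, and leaving out libraries for the marker lists, were added after seeing the data. Named were the members, the 3 genes with the smallest p of each of 6 lists, 20 genes fixed by symbol, and the 2 nearest profiles of each member. Fits were checked on simulated counts. Some listed symbols had no match in the table and were not analysed here. Some genes that the rule took are left out of the text.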

Additional observations from a re-analysis of the deposited data

How the results depend on the processing

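The members were chosen on this contrast, so the number called, 7 or 8 in every setting, says nothing about stability. With old replicate 2 alone, the spread comes from the young libraries only. Over all genes, 463 were higher and 435 lower, 208 and 129 in limma without trend and robust estimation, 976 and 843 with DESeq2, 975 and 843 with the authors' p-values, 219 higher with old replicate 2 alone, and 139 to 554 and 91 to 582 without 1 library. With the replicate number as block, 230 were higher and 176 lower. Deviations of same-numbered libraries correlated at −0.244, −0.0965 and −0.0879 over 13308 genes, and no library correlated best with its own number. The deviations were centred within each group, so these values depend on each other and cannot decide whether the numbers pair the mice.

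In what follows, counts within 1.5 times of the first are mostly not listed. Signature rises were 6, but 3 without trend and robust estimation, 1 for old replicate 2 alone and 3 to 6 without 1 library. The 1 fall was 0 without trend or with the block, and 0 to 1 without 1 library. TYROBP rises were 5, but 4 with either pseudocount, a mean of at least 10 or quantile normalisation, 6 with DESeq2 or the authors' p-values, 2 without trend, 3 with the block, 1 for old replicate 2 alone and 2 to 7 without 1 library. Falls were 0, but 1 at a mean of at least 10, with DESeq2 and with the authors' p-values. Cholesterol rises were 2, but 1 without trend or with the block, 0 for old replicate 2 alone and 1 to 2 without 1 library. Falls were 0, but 2 with DESeq2 or the authors' p-values, 1 for old replicate 2 alone and 0 to 1 without 1 library. Scavenger falls were 2, but 1 with quantile normalisation, without trend or with the block, 6 with DESeq2 or the authors' p-values and 1 to 5 without 1 library. LPL list rises were 1, but 2 with DESeq2 or the authors' p-values, 0 for old replicate 2 alone and 1 to 2 without 1 library. The 1 fall was 0 without trend, and 0 to 1 without 1 library. Integrin rises were 4, but 1 for old replicate 2 alone and 3 to 5 without 1 library. The cause was not tested, save that fewer samples enter some fits.

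Signs turned for values near 0 and for Gpihbp1 (−0.47 with all libraries). Quantile normalisation gave 0.22 for Spp1 and 0.036 for Cd9. Old replicate 2 alone gave 0.047 for Spp1, 0.0093 for Cd9, −0.30 for Abca1, −0.094 for Abcg1 and 0.089 for Gpihbp1. Without 1 library, Spp1 had −0.070 to 0.075, Cd9 −0.11 to 0.071, Apoe −0.029 to 0.18, Abca1 −0.091 to 0.39 and Abcg1 −0.16 to 0.12. Depth limits genes such as Itgax, Cst7, Apoc4 and Hcst, with 16, 1, 4 and 9 reads in all young libraries together.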
